A study of Mus musculus with 9 samples.

Results

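The genes described here are 35 genes of endoplasmic reticulum stress and protein folding. They were chosen by symbol from a list of stress sensors, the factors these sensors activate, chaperones, disulfide enzymes and parts of the degradation and translocation machinery. All 35 were found, each on a single row, among the 23309 symbols of the deposited expression table. The study profiled RNA of mouse podocytes, the epithelial cells whose foot processes wrap the glomerular capillaries, after injury, and WT1, a podocyte transcription factor, and repair are named in its title. There were 9 libraries in 3 groups of 3. One group was taken 14 days and another 9 days after injection of an agent the labels abbreviate ADR, the usual short form of adriamycin (doxorubicin) in podocyte injury models. The third group was given PBS. Every group shared the mTmG reporter with a Cre recombinase active in podocytes, a genotype labelled wildtype and an age of 7 to 8 weeks. In such mice Cre switches on green fluorescent protein, and total RNA came from GFP-positive cells. A library therefore holds whatever the isolation of fluorescent cells collected, and whether each library came from its own animal is not stated in the labels. The p-values thus measure only the spread between these libraries, which may be technical.

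The endoplasmic reticulum is where secreted and membrane proteins enter the secretory pathway, are folded with the help of chaperones, receive disulfide bonds and glycans, and are sent back to the cytosol for degradation when folding fails. An overload of unfolded protein is sensed by IRE1 (encoded by Ern1), PERK (Eif2ak3) and ATF6, which act through spliced XBP1, ATF4 and cleaved ATF6 to raise chaperones and degradation factors; prolonged signalling through PERK and ATF4 raises CHOP (Ddit3). Podocytes make and traffic large amounts of slit diaphragm and basement membrane proteins, and inherited misfolding of such proteins in the reticulum is a known cause of podocyte disease.

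Several of these genes carry in their promoters the endoplasmic reticulum stress element (ERSE, CCAAT and CCACG with any 9 bases between them), the sequence through which ATF6 and XBP1 act on chaperone genes. The genes were chosen by symbol and not by these sites, but the element is known from chaperone genes of this kind. Its frequency among them is therefore a description and no independent result. RefSeq promoters (build GRCm38.p6) were matched for 31 of the 35 genes, and the 250 bases before each start were searched on both strands. Of these 31 genes, 9 (29.0%) held the element, against 0.113% of all 32851 promoters. Each site is printed on the strand where it reads CCAAT first, with the element in capitals and 8 bases on either side.
Hspa5: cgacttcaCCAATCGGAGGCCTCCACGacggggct
Hsp90b1, site farther from the start: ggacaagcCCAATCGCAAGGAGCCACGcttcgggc
Hsp90b1, site nearer the start: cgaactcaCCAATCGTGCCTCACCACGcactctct
Calr: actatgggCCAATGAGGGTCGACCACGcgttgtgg
Canx: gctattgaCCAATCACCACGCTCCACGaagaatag
Dnajc3: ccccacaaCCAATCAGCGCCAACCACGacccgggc
Creld2: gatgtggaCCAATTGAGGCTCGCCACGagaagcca
Pdia6: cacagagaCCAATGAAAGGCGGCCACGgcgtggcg
Syvn1: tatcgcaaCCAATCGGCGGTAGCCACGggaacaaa
Derl3: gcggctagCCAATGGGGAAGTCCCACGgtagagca

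The printed windows lie at chr2:34772017-34772051 (+) for Hspa5, chr10:86705630-86705664 (−) and chr10:86705525-86705559 (+) for Hsp90b1, chr8:84847067-84847101 (+) for Calr, chr11:50325792-50325826 (−) for Canx and chr14:118937819-118937853 (+) for Dnajc3. Those of Creld2, Pdia6, Syvn1 and Derl3 lie at chr15:88819512-88819546 (−), chr12:17266483-17266517 (+), chr19:6046524-6046558 (+) and chr10:75893234-75893268 (−). The element starts 65 bases before the start of Hspa5 and 44 before that of Syvn1, and between 98 and 212 bases before the start for the other genes. The longer promoter of Hspa5 (chr2:34771970-34772089, + strand) is shown as the classic example of the element, and that of Syvn1 (chr19:6046476-6046575, + strand) because Syvn1 had the smallest p of these genes on day 14 against PBS.
Hspa5 promoter: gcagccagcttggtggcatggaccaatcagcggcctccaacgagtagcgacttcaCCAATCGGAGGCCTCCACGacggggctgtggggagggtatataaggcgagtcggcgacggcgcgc
Syvn1 promoter: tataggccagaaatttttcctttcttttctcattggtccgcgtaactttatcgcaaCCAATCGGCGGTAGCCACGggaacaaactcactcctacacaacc

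The related element ERSE-II (ATTGG and CCACG with any 1 base between them) was found in 1 of the 31 promoters, that of Herpud1, against 0.0304% of all promoters. It lies at chr8:94386369-94386395 (+), printed with the element in capitals.
Herpud1: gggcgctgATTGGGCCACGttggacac

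The core of the unfolded protein response element (TGACGTGG) was found in 0 of the 31 promoters and in 0.563% of all. A composite site of ATF4 with C/EBP factors (TGATGNAA) was found in 3 of them, those of Asns, Chac1 and Herpud1, against 3.45% of all. Each match says only that the letters stand in this window.

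Expression was deposited as FPKM, which divides the fragments of a gene by its transcript length and by the library's mapped fragments. A relative depth read from the steps of low values, with PBS replicate 2 set to 1, was 0.239 to 0.569 in the day 14 libraries, 0.786 to 0.889 in the day 9 libraries and 1 to 1.085 in the PBS libraries, so the day 14 values rest on the fewest reads. Day 14 replicate 1 was rich in markers of other kidney cells: 12 of 12 distal nephron, 11 of 12 proximal tubule, 14 of 15 endothelial and 9 of 14 leukocyte markers exceeded 4 times the highest PBS library. In day 9 replicate 3 this held for 14 of 15 endothelial, 8 of 14 leukocyte, 7 of 12 distal nephron, 7 of 10 plasma and B cell and 6 of 10 mesangial markers. The summed level of 15 podocyte markers was 1539 to 2594 FPKM on day 14, 7426 to 12380 FPKM on day 9 and 5626 to 8839 FPKM with PBS, and in every library at least 14 of the 15 reached 1 FPKM. In bulk RNA of this kind, fewer cells of a type and less RNA per cell cannot be told apart. Y-linked transcripts were present in day 14 replicate 2, day 9 replicate 1 and all 3 PBS libraries, so their presence largely moves with the PBS group.

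The levels of the 35 genes spanned the range from BiP to genes near the limit of detection. Hspa5, which encodes BiP, the main chaperone of the reticulum, averaged 823 ± 103 FPKM on day 14, 1596 ± 753 FPKM on day 9 and 1483 ± 14.2 FPKM with PBS (SD, n = 3 each). It made up 18.2% to 21.5% of the summed level of all 35 genes on day 14, 25.1% to 36.7% on day 9 and 26.8% to 28.1% with PBS. The 35 genes together held 0.55% to 0.619% of all FPKM in the day 14 libraries, 0.773% to 1.176% in the day 9 libraries and 0.89% to 0.923% in the PBS libraries. All day 14 libraries thus lay below all others in this share. Ern1, Asns and Manf did not reach 1 FPKM in at least 3 of the 9 libraries and were not tested, which leaves 32 tested genes among 9788 tested in all. The spread between libraries of a group was widest on day 14. The median coefficient of variation over the 32 genes was 40.2% on day 14, 20.4% on day 9 and 12.5% with PBS. Day 14 replicate 1 held the lowest value for 14 of the 35 genes (for Derl3 together with the other day 14 libraries) and the highest for 7.

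**Figure D1:**
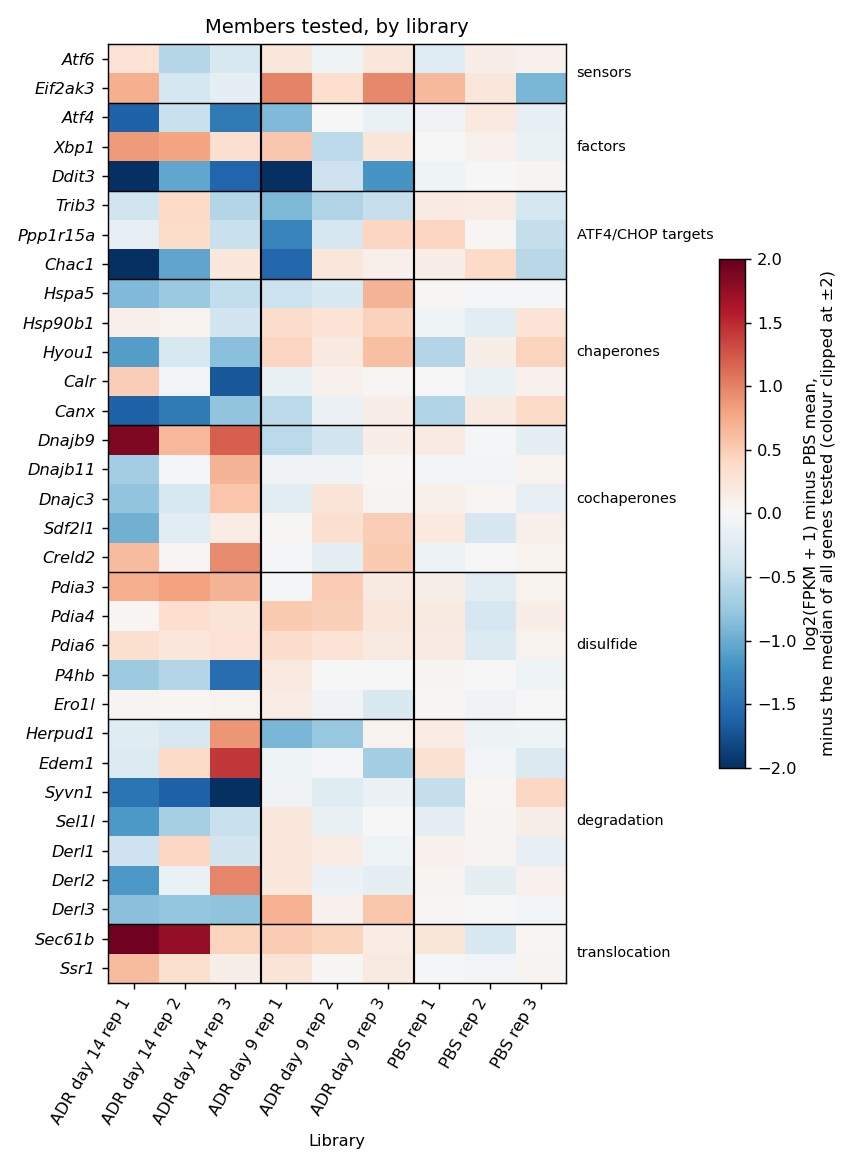
Each row is a tested gene and each column a library, with colour for log2(FPKM + 1) minus the PBS mean and minus the median of all genes tested in that library, clipped at 2 either way; lines separate roles and groups. The 9 cells of Syvn1, Canx and P4hb on day 14 are blue and those of Pdia3 and Sec61b are red.

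On day 14 against PBS, the genes that changed were all lower. They were Syvn1, Sel1l and Derl3 of the degradation machinery, the chaperone Canx, the disulfide isomerase P4hb and the transcription factor Atf4. These 6 of the 32 tested genes (18.8%) fell and 0 rose, at an adjusted p under 0.05 from limma with Benjamini-Hochberg adjustment over all 9788 genes tested. Of all genes tested, 10.7% fell and 6.32% rose (17.1% in either direction), so the share called among these genes was near that background. Derl3, Hyou1 and Trib3 reached the filter on low values only with the group where they are high, so their calls support nothing; among the other 29 genes 5 fell and 0 rose (17.2%). Log2 changes below are differences of log2(FPKM + 1), so those of low genes come out too small, and have the median change over all 9788 genes subtracted, which was −0.15 here. The median of the 32 genes was −0.12, with a range of −2.41 to 1.38. Day 14 and PBS libraries did not overlap for 9 genes that were lower and 4 that were higher on day 14, where 23.8% and 15.6% of all genes tested were lower and higher without overlap. With another scaling the split changed, to 2 higher (Dnajb9 and Sec61b) and 2 lower (Canx and Syvn1) under median-of-ratios scaling, 1 higher (Dnajb9) and 4 lower under quantile normalization, and 0 higher and 8 lower with a common total.

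On day 14 against day 9, Dnajb9, a cochaperone of BiP, rose, and Syvn1, Sel1l, Derl3, Canx, P4hb and the chaperone Hyou1 fell. That is 1 and 6 of 32 (21.9% in either direction), where 5.71% of all genes tested rose and 9.98% fell (15.7% in either direction). Without Derl3, Hyou1 and Trib3, 1 rose and 4 fell of 29 (17.2%). The median of the 32 genes was −0.18 relative to the median of all genes tested, itself −0.22. Groups did not overlap for 2 genes that were higher (Dnajb9 and Pdia3) and 11 that were lower, where 13.2% and 24.6% of all genes tested were higher and lower without overlap. Under median-of-ratios scaling and under quantile normalization 1 gene rose and 3 fell, and with a common total 0 rose and 10 fell. This comparison shares its day 14 libraries with the one before.

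On day 9 against PBS, 0 of the 32 genes passed the test, as did 0 of all 9788 (0%; limma, smallest adjusted p = 0.9999). An unadjusted p under 0.05 was reached by 304 genes in all and by 1 of the 32, Derl3, and no alternative fit called any of the 32. Their median change was 0.02, from −1.30 for Ddit3 to 0.75 for Eif2ak3. Day 9 libraries lay above all PBS libraries for Derl3, Pdia4 and Pdia6 and below them for Ddit3 and Trib3, where 6.77% and 6.63% of all genes tested did so.

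**Figure D2:**
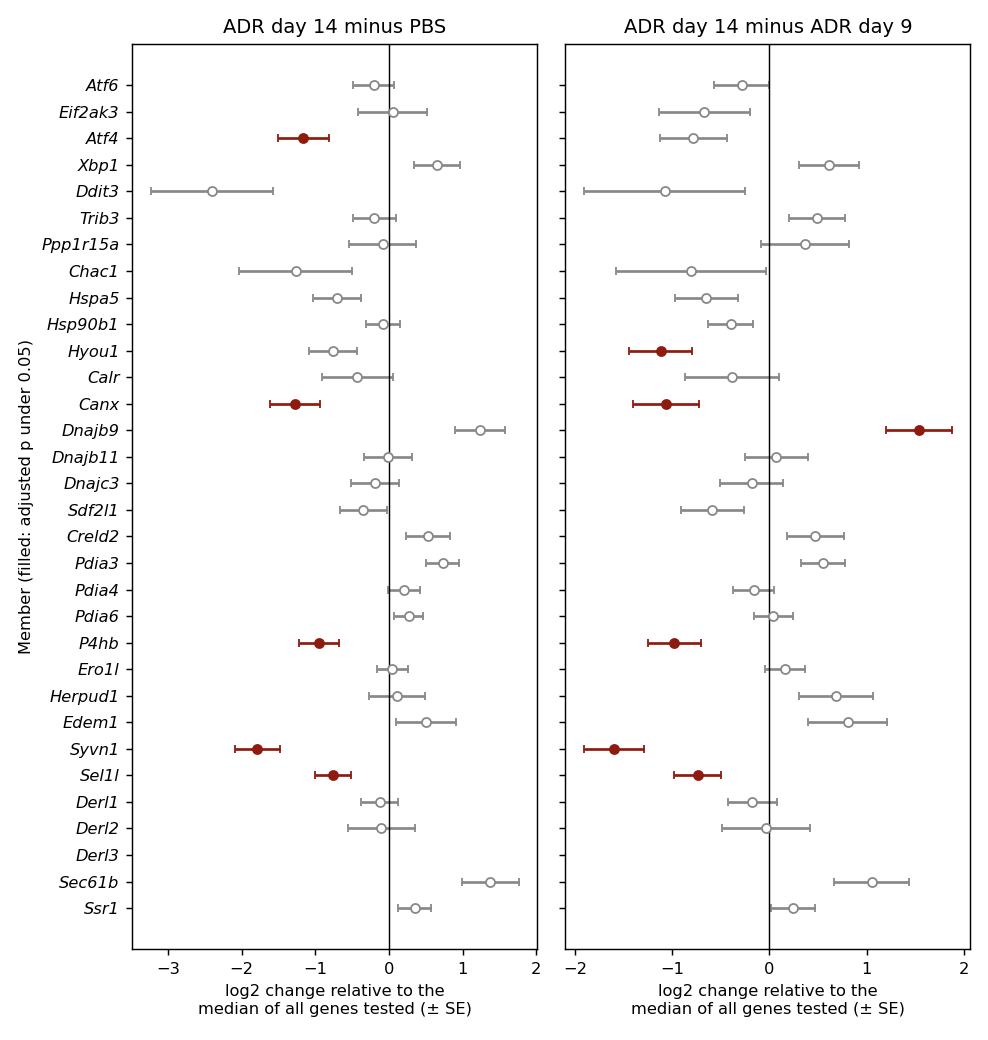
Points are log2 changes on the log2(FPKM + 1) scale relative to the median of all genes tested, with SE as bars, for day 14 minus PBS (left) and day 14 minus day 9 (right); filled points have an adjusted p under 0.05. Derl3 has no point because it is listed at 0 on day 14. Filled points lie to the left of 0 for 5 genes in each panel, and Dnajb9 alone is filled to the right, at 1.53 against day 9.

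Among the sensors, none passed the test in any comparison. Eif2ak3, which encodes PERK, was at 6.30, 2.36 and 2.79 FPKM in day 14 replicates 1 to 3, at 8.99, 5.03 and 8.75 FPKM on day 9 and at 6.62, 4.71 and 1.62 FPKM with PBS. Its PBS libraries alone spanned most of that range. Atf6 averaged 0.987 ± 0.672 FPKM on day 14, 1.74 ± 0.406 FPKM on day 9 and 1.46 ± 0.373 FPKM with PBS. Ern1, which encodes IRE1, was between 0 and 0.211 FPKM on day 14, 0.156 and 0.338 FPKM on day 9 and 0.460 and 0.646 FPKM with PBS. These low values are a description only, since Ern1 was not tested.

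Of the transcription factors below the sensors, Atf4 fell on day 14 against PBS, and Ddit3 and Xbp1 did not pass. Atf4, the factor whose translation rises when PERK acts, was at 67.7, 148 and 75.9 FPKM on day 14, at 128, 225 and 216 FPKM on day 9 and at 216, 262 and 209 FPKM with PBS. Each day 14 library was lower than every PBS library, and the fall was −1.17 ± 0.34 (SE; limma, adjusted p = 0.0348). Against day 9 the groups overlapped and the change of −0.79 did not pass (adjusted p = 0.0787). Ddit3, which encodes the pro-apoptotic factor CHOP, was at 9.82, 120 and 82.3 FPKM on day 14, at 59.5, 206 and 127 FPKM on day 9 and at 263, 279 and 298 FPKM with PBS. Every day 14 and day 9 library lay below every PBS library, and the replicates within either ADR group differed widely. Its log2 changes of −2.41 ± 0.83 on day 14 and −1.30 ± 0.83 on day 9 (SE), both against PBS, did not pass (adjusted p = 0.0653 and 0.9999). Leaving out 1 library moved the day 14 change to −1.32 without day 14 replicate 1 and to −3.09 without replicate 2, where it passed. The ratio of Ddit3 to Atf4 was 0.145 in day 14 replicate 1, the library rich in tubule markers, and 0.813 and 1.08 in the other day 14 libraries, against 0.467 to 0.913 on day 9 and 1.06 to 1.43 with PBS. Xbp1, the factor spliced by IRE1, was at 201, 186 and 137 FPKM on day 14, at 183, 82.2 and 148 FPKM on day 9 and at 121, 129 and 113 FPKM with PBS. Its day 14 libraries all lay above the PBS libraries, by 0.65 ± 0.31 (SE), which did not pass (adjusted p = 0.278). FPKM per gene do not tell spliced from unspliced Xbp1.

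The 3 tested genes listed here as targets of ATF4 and CHOP did not pass the test in any comparison. Genes of a wider ATF4 list, some of which passed, are given further below. Ppp1r15a encodes GADD34, which restores translation by removing the phosphate that PERK adds. It was at 529, 732 and 426 FPKM on day 14, at 266, 501 and 900 FPKM on day 9 and at 866, 656 and 471 FPKM with PBS, so that all groups overlapped. Trib3, a pseudokinase that feeds back on ATF4, was at 0.709, 1.84 and 0.464 FPKM on day 14, 0.360, 0.594 and 0.842 FPKM on day 9 and 1.74, 1.72 and 0.958 FPKM with PBS. Its day 9 libraries were below all PBS libraries, by −0.66 ± 0.29 (SE; adjusted p = 0.9999). Chac1, which degrades glutathione, was listed at 0 in day 14 replicate 1, at 2.55 and 7.66 FPKM in the others of that group, at 1.92, 8.61 and 8.24 FPKM on day 9 and at 8.13, 9.995 and 4.81 FPKM with PBS. Asns, asparagine synthetase, stayed under 0.51 FPKM in every library and was not tested.

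Among the 5 chaperones, Canx fell in both day 14 comparisons, Hyou1 was lower than on day 9, with a limit given below, and Hspa5, Hsp90b1 and Calr did not pass. Canx, which encodes calnexin, the membrane-bound lectin chaperone for glycoproteins, was at 20.8, 23.3 and 36.9 FPKM on day 14, at 51.4, 65.3 and 81.6 FPKM on day 9 and at 47.2, 81.9 and 96.3 FPKM with PBS. No day 14 library reached the lowest of the others, and the fall was −1.28 ± 0.34 (SE; adjusted p = 0.0258) against PBS and −1.06 ± 0.34 (SE; adjusted p = 0.0371) against day 9. Calr, the soluble partner of calnexin, was at 201, 131 and 42.1 FPKM on day 14, against 146 to 164 FPKM on day 9 and 142 to 169 FPKM with PBS, and did not pass. The ratio of Calr to Canx was 9.67, 5.63 and 1.14 in the day 14 libraries, 2.01 to 2.84 on day 9 and 1.74 to 3.31 with PBS, so the day 14 libraries lay on both sides of the others.

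The level of Hspa5 was 744, 786 and 939 FPKM on day 14, 1143, 1180 and 2466 FPKM on day 9 and 1497, 1469 and 1482 FPKM with PBS. The PBS values agreed within a coefficient of variation of 1.0%, and all day 14 libraries were lower than all others. The highest value came from day 9 replicate 3, the library with endothelial, leukocyte, distal nephron, mesangial, and plasma and B cell markers. The day 14 change of −0.71 ± 0.32 (SE) against PBS did not pass (adjusted p = 0.101). Without day 9 replicate 3 and day 14 replicate 1 together it was −0.62 and passed (adjusted p = 0.0321), and it also passed without day 9 replicate 3 alone, at −0.71. Hyou1, the ATP-exchange partner of BiP, was at 0.172, 0.912 and 0.362 FPKM on day 14, at 2.79, 2.03 and 3.28 FPKM on day 9 and at 0.804, 1.95 and 2.76 FPKM with PBS. The change on day 14 against day 9 was −1.12 ± 0.32 (SE; adjusted p = 0.0282), and Hyou1 would have missed the filter on low values without the day 9 libraries, where it is high. Against PBS, where PBS replicate 1 lay within the day 14 range, the change of −0.76 did not pass (adjusted p = 0.0854). Hsp90b1, which encodes GRP94, was at 108, 100 and 74.2 FPKM on day 14, at 144, 130 and 155 FPKM on day 9 and at 102, 93.7 and 135 FPKM with PBS. Its day 14 libraries lay below all day 9 libraries, by −0.40 ± 0.23 (SE), which did not pass (adjusted p = 0.0989).

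**Figure D3:**
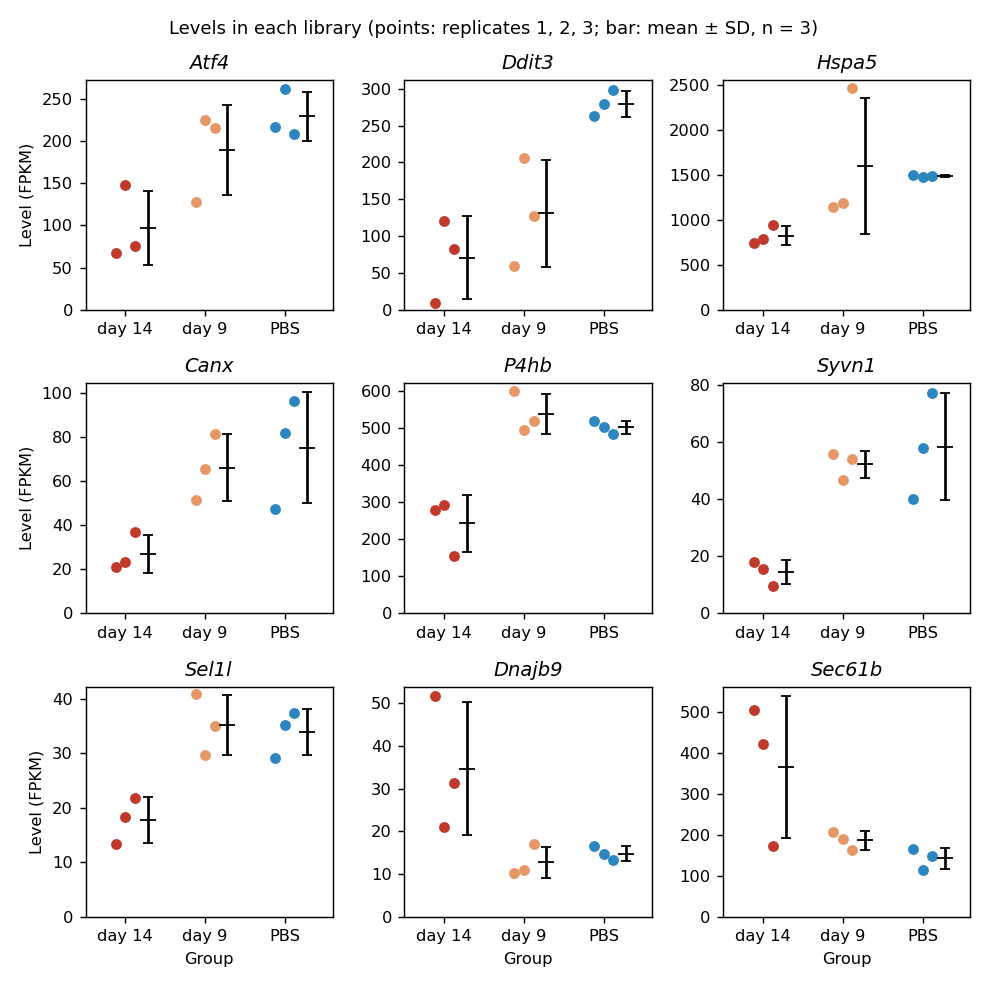
Levels in FPKM (linear axes from 0) of 9 genes in each library, with points for replicates 1 to 3 and bars for mean ± SD, day 14 leftmost and PBS rightmost in each panel. Day 14 points lie below all PBS points in the panels from Atf4 to Sel1l and above them for Dnajb9 and Sec61b, and PBS points are tightest for Hspa5, at 1469 to 1497 FPKM.

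Of the cochaperones and small folding factors, Dnajb9 stood apart. It encodes ERdj4, a J-domain partner of BiP that also delivers proteins for degradation, and was at 51.7, 21.1 and 31.3 FPKM on day 14, at 10.3, 10.9 and 16.9 FPKM on day 9 and at 16.6, 14.6 and 13.2 FPKM with PBS. All day 14 libraries exceeded all others. The rise was 1.53 ± 0.34 (SE; adjusted p = 0.0349) against day 9, and the change of 1.24 ± 0.34 (SE) against PBS did not pass (adjusted p = 0.0593). The 4 others that were tested had overlapping day 14 and PBS libraries and did not pass in any comparison. Dnajb11 (ERdj3) was at 310, 473 and 782 FPKM on day 14, against 507 to 572 FPKM on day 9 and 523 to 580 FPKM with PBS. Dnajc3, which encodes an inhibitor of PERK, was at 13.2, 17.8 and 33.9 FPKM on day 14 against 22.7 to 30.4 FPKM on day 9 and 23.2 to 27.5 FPKM with PBS. Sdf2l1, a subunit of a BiP complex, was at 4.19 to 9.88 FPKM on day 14, 10.5 to 14.8 FPKM on day 9 and 7.70 to 11.5 FPKM with PBS. Creld2, a secreted stress-induced protein, was at 137 to 262 FPKM on day 14, 131 to 225 FPKM on day 9 and 141 to 163 FPKM with PBS. Manf, a secreted survival factor, reached 1.16 FPKM in day 14 replicate 1, stayed between 0.313 and 0.550 FPKM in all other libraries and was not tested.

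Of the 5 disulfide enzymes, P4hb fell and the other 4 varied little between the day 14 libraries, with coefficients of variation of 2.4% to 8.6%, below the 12.5% of Hspa5, the next of the tested genes. P4hb encodes the founding protein disulfide isomerase and was at 280, 294 and 155 FPKM on day 14, at 600, 496 and 519 FPKM on day 9 and at 521, 503 and 485 FPKM with PBS. It fell by 0.95 ± 0.27 (SE; adjusted p = 0.0293) against PBS and by 0.98 ± 0.27 (SE; adjusted p = 0.0247) against day 9, with no overlap in either comparison. Pdia3 encodes ERp57, which works with calnexin and calreticulin. Its level was 11.3, 11.4 and 10.6 FPKM on day 14, 7.25, 10.4 and 8.49 FPKM on day 9 and 7.74, 5.97 and 7.70 FPKM with PBS. Every day 14 library lay above every other, and the change of 0.73 ± 0.23 (SE) against PBS did not pass (adjusted p = 0.112). Pdia4 averaged 53.5 ± 4.604 FPKM on day 14, 70.0 ± 7.39 FPKM on day 9 and 51.9 ± 9.91 FPKM with PBS (SD, n = 3 each). Pdia6 averaged 240 ± 13.5 FPKM on day 14, 271 ± 19.4 FPKM on day 9 and 222 ± 33.7 FPKM with PBS (SD, n = 3 each). For both, the day 9 libraries lay above all others and no comparison passed. Ero1l, the oxidase that recharges disulfide isomerases, averaged 13.9 ± 0.341 FPKM on day 14, 14.7 ± 2.56 FPKM on day 9 and 15.0 ± 0.577 FPKM with PBS (SD, n = 3 each). Its day 14 libraries lay just below the PBS libraries as deposited, while the change relative to the median gene was 0.05 ± 0.21 (SE; adjusted p = 0.761).

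Of the 7 tested genes of degradation from the reticulum, 3 were called lower on day 14 against PBS, where 10.7% of all genes tested fell. Derl3, described below and not relied on, is one, and Syvn1 and Sel1l encode the core of one ubiquitin ligase complex. Syvn1, the ligase HRD1, was at 18.1, 15.5 and 9.68 FPKM on day 14, at 55.8, 46.6 and 53.9 FPKM on day 9 and at 39.9, 58.0 and 77.1 FPKM with PBS. The highest day 14 library was below the lowest of all others. It fell by 1.79 ± 0.31 (SE; adjusted p = 0.0106) against PBS and by 1.60 ± 0.31 (SE; adjusted p = 0.0116) against day 9, and its ERSE site is shown above. Sel1l, the adaptor of that ligase, was at 13.4, 18.3 and 21.8 FPKM on day 14, at 40.8, 29.7 and 34.9 FPKM on day 9 and at 29.2, 35.2 and 37.3 FPKM with PBS. It fell by 0.76 ± 0.24 (SE; adjusted p = 0.0365) against PBS and by 0.74 ± 0.24 (SE; adjusted p = 0.0331) against day 9, again with no overlap. The ratio of Syvn1 to Sel1l was 1.35, 0.851 and 0.444 on day 14, 1.37 to 1.57 on day 9 and 1.37 to 2.07 with PBS, so each day 14 library lay below the others in this ratio too.

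The derlins, membrane proteins thought to form part of the channel out of the reticulum, differed among themselves. Derl3 was listed at 0 in all 3 day 14 libraries, at 2.27, 1.04 and 1.94 FPKM on day 9 and at 0.963, 0.953 and 0.909 FPKM with PBS. It passed the filter on low values only through the day 9 libraries, and it passed the test on day 14 against PBS and against day 9 (adjusted p = 0.0206 and 0.00999); no fold is given against a group listed at 0, since such a 0 can be a failed estimate. Its calls are therefore listed and not relied on. Derl1 was at 31.6, 54.7 and 32.0 FPKM on day 14, against 45.1 to 56.1 FPKM on day 9 and 42.2 to 48.9 FPKM with PBS. Derl2 was at 17.1, 33.7 and 75.3 FPKM on day 14, so that its day 14 libraries enclosed the 38.4 to 51.1 FPKM of day 9 and the 37.3 to 46.1 FPKM of PBS. Edem1, which extracts glycoproteins for degradation, was at 35.4, 54.1 and 113 FPKM on day 14, 45.8, 45.5 and 29.8 FPKM on day 9 and 58.1, 45.3 and 39.0 FPKM with PBS. Herpud1, which organises the HRD1 complex, was at 247, 224 and 524 FPKM on day 14, 173, 185 and 343 FPKM on day 9 and 351, 298 and 303 FPKM with PBS. Day 14 replicate 3 was the highest of the 9 libraries for Derl2, Edem1 and Herpud1, and none of them passed.

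Neither translocation gene among the 35 passed. Sec61b, the beta subunit of the channel through which nascent proteins enter the reticulum, was at 507, 423 and 173 FPKM on day 14, at 209, 191 and 163 FPKM on day 9 and at 167, 115 and 148 FPKM with PBS. All day 14 libraries exceeded all PBS libraries, replicate 3 by little, and the change was 1.38 ± 0.39 (SE; adjusted p = 0.0593). Ssr1, a subunit of the translocon-associated TRAP complex, averaged 2.25 ± 0.661 FPKM on day 14, 2.17 ± 0.349 FPKM on day 9 and 1.80 ± 0.137 FPKM with PBS (SD, n = 3 each).

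Other genes of the same pathways put these values in context. Of 120 such genes in 6 lists, 113 were tested. Of these, 10 rose and 13 fell on day 14 against PBS (20.4% in either direction, against 17.1% of all genes tested), and 8 rose and 14 fell on day 14 against day 9 (19.5%, against 15.7%). On day 9 against PBS 0 of the 113 passed. Under a common total 9 rose and 22 fell on day 14 against PBS, and under median-of-ratios scaling 13 rose and 12 fell.

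The translocation and signal peptide list held most of the genes that rose. Of its 22 tested genes 6 rose and 1 fell on day 14 against PBS, where 6.32% and 10.7% of all genes tested rose and fell, with a list median of 0.57. Sec11a, a catalytic subunit of signal peptidase, was at 508, 447 and 536 FPKM on day 14, at 211, 182 and 209 FPKM on day 9 and at 197, 182 and 176 FPKM with PBS. Its rise was 1.56 ± 0.19 (SE; adjusted p = 0.00994) against PBS. Sec11c, the other catalytic subunit, and the accessory subunits Spcs1 and Spcs2 also rose, by 1.26, 1.86 and 0.93, as did Ssr2 of the TRAP complex and the channel partner Sec63. Sec61a1, the pore-forming subunit, was the gene that fell. It was at 44.7, 56.1 and 44.2 FPKM on day 14, at 148, 136 and 161 FPKM on day 9 and at 151, 183 and 176 FPKM with PBS, and its fall was −1.65 ± 0.20 (SE; adjusted p = 0.0096). The ratio of Sec61b to Sec61a1, subunits of the same channel, was 11.3, 7.55 and 3.92 on day 14, 1.02 to 1.41 on day 9 and 0.624 to 1.10 with PBS. Their transcripts differ in length (723 and 3172 bases), and day 14 changes ran with length, as given below. After removal of a trend on length and GC content Sec61b stood at 0.82 and Sec61a1 at −1.38 against PBS (limma, adjusted p = 0.174 and 0.0258). The ratio itself was not tested.

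**Figure D4:**
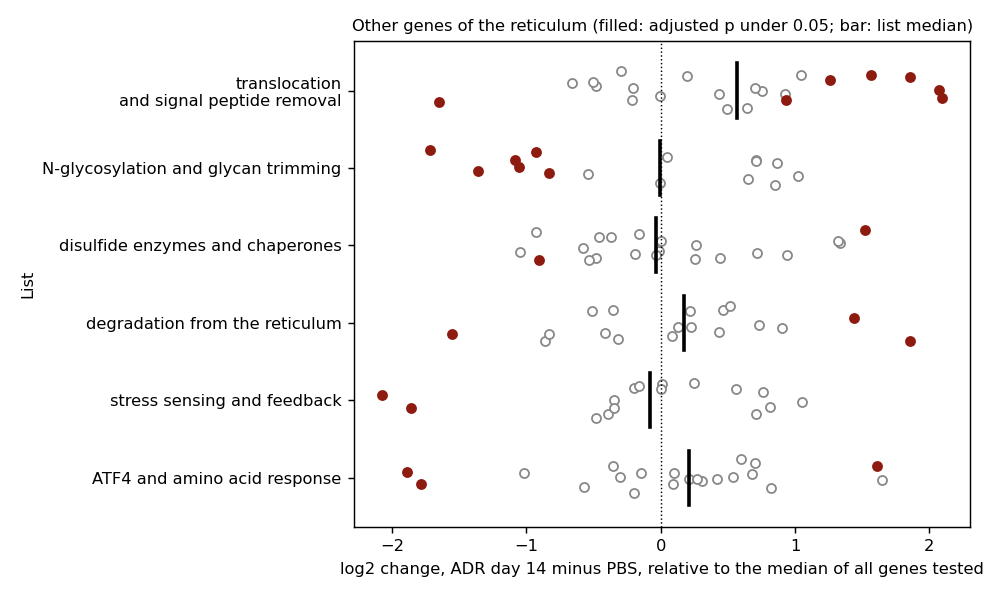
Each point is one tested gene of the 6 lists, placed by its log2 change on day 14 minus PBS (log2(FPKM + 1) scale, relative to the median of all genes tested); filled points have an adjusted p under 0.05 and vertical bars are list medians. In the translocation list 6 filled points lie right of 0 and 1 left, while in the N-glycosylation list all 6 filled points lie left of 0.

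The N-glycosylation list had 6 of 15 tested genes that fell and 0 that rose on day 14 against PBS, where 10.7% and 6.32% of all genes tested fell and rose, while its median was 0.00. Prkcsh, the beta subunit of glucosidase II, was at 26.7, 21.6 and 20.2 FPKM on day 14, against 43.5 to 46.6 FPKM on day 9 and 44.3 to 57.6 FPKM with PBS, a fall of 0.93 ± 0.20 (SE; adjusted p = 0.0146). Its partner Ganab fell by 1.06. Stt3b, a catalytic subunit of oligosaccharyltransferase, and Man1b1, a trimming mannosidase, fell by 0.83 and 1.72, and Uggt1, the glucosyltransferase that returns misfolded glycoproteins to calnexin, and Edem3 fell by 1.08 and 1.36. Calnexin and these enzymes act on the same glycoproteins. After removal of a trend on length and GC content Prkcsh passed on day 14 against PBS, and Stt3b and Man1b1 did not (limma, adjusted p = 0.047, 0.080 and 0.056). The count on day 14 against day 9 was also 6 of 15.

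The other lists held 2 or 3 genes each that passed on day 14 against PBS. That was 9.5% to 16.7% of their tested genes, below the 17.1% of all genes tested. Among 18 genes of degradation from the reticulum, Selk and Vimp, selenoproteins of the derlin complex, rose by 1.86 and 1.44. Ubxn8, which tethers the ATPase p97, fell by 1.55. After removal of a trend on length and GC content Vimp stood at 0.64 and did not pass (limma, adjusted p = 0.279). Selk and Ubxn8 passed there. Of the genes named next, Wfs1, Mbtps1 and Cebpg also passed there. Nucb2, Tmx4, Slc7a11 and Atf5 did not (limma, adjusted p = 0.079, 0.079, 0.078 and 0.086). Of 16 genes of stress sensing and feedback, Wfs1, which encodes wolframin, fell by 2.07 and Mbtps1, the protease that cleaves ATF6 in the Golgi, fell by 1.86. Mbtps1 was at 9.88, 8.97 and 10.7 FPKM on day 14, against 34.0 to 52.4 FPKM on day 9 and 28.8 to 55.9 FPKM with PBS. Among 21 further disulfide enzymes and chaperones, Nucb2, which encodes a calcium-binding protein, rose by 1.52 and Tmx4, a membrane thioredoxin, fell by 0.90. Of 21 genes of the ATF4 and amino acid response, the dimer partner Cebpg rose by 1.61, while the cystine transporter Slc7a11 fell by 1.88. The factor Atf5 was lower by 1.78 as fitted, but reached the filter only with the PBS libraries, where it is high.

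Genes with an ERSE site and all other tested genes are set side by side here. Of the 9 genes with the element, all tested, 3 fell on day 14 against PBS (Canx, Syvn1 and Derl3), with changes from −1.79 to 0.53, where 10.7% of all genes tested fell and Derl3 entered only through day 9. The 23 other tested genes had no site in the window or no matched promoter. Of these 3 fell (Atf4, P4hb and Sel1l), with changes from −2.41 to 1.38. These counts are given as a description with no test.

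Values that move with the day 14 results bear on all of them. Over all genes tested, the change on day 14 against PBS ran with transcript length (Spearman rho −0.331 across genes, which are not independent replicates), and over the 32 genes rho was −0.019. After removal of a trend on length and GC content 2 of the 6 genes passed, Syvn1 at −1.29 (adjusted p = 0.0412) and Derl3. Of all genes in that fit, 582 of 9732 passed, against 1670 of 9788 without that step. Canx and Atf4 then stood at −1.21 and −1.27 (adjusted p = 0.0565 and 0.0662), close to their values without that step, and P4hb and Sel1l at −0.78 and −0.49. Among the other pathway genes, the median length was 2411 bases for those that rose and 3860 bases for those that fell. With the level of Y-linked transcripts as a term 0 of the 6 passed, as did 0 of all 9788 genes tested, and Syvn1 stood at −1.57 (adjusted p = 0.0843). As every PBS library and 1 of 3 day 14 libraries hold such transcripts, this term and the group can hardly be told apart. Without day 9 replicate 3 and day 14 replicate 1 together 5 of the 32 genes passed, as did 2165 of all 9788 genes tested. These 5 were Canx, P4hb, Syvn1, Derl3 and Hspa5, and Hspa5 was not one of the 6. Atf4 and Sel1l then stood at −0.93 and −0.56 and did not pass (limma, adjusted p = 0.0662 and 0.0606).

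Leaving out single libraries ended some calls. Without PBS replicate 2 none of the 32 genes passed on day 14 against PBS (Syvn1 then at −1.78, adjusted p = 0.0664), without PBS replicate 3 only Syvn1 did, and without day 9 replicate 2, which enters through the shared spread, 3 did. Of all 9788 genes tested, 0, 150 and 1081 passed in these fits, against 1670 with all libraries. The loss of calls was thus not particular to the 32 genes. Over the 9 such fits Syvn1 passed in 8, Canx in 6, P4hb in 5, Atf4 in 3 and Sel1l in 1, with log2 changes of −2.04 to −1.54 for Syvn1, −1.59 to −1.04 for Canx, −1.13 to −0.66 for P4hb, −1.52 to −0.93 for Atf4 and −0.91 to −0.56 for Sel1l. Without day 9 replicate 1, 2 or 3 or without PBS replicate 2, 2 genes passed on day 14 against day 9. Of all 9788 genes tested, 497, 625, 381 and 729 passed in these fits, against 1536 with all libraries. In that comparison Syvn1 passed in 9 of the 9 fits, P4hb in 5, Hyou1 and Sel1l in 4, Canx in 3 and Dnajb9, the gene that rose, in 2, at 1.22 to 1.82.

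Some values may share reads with neighbouring genes, which was not tested. In the GENCODE M21 annotation, exons of Ddit3 overlap those of Mars on the opposite strand by 68 bases, Syvn1 those of Mrpl49 by 91, Derl2 those of Mis12 by 231, Hsp90b1 those of 1810014B01Rik by 415, Eif2ak3 those of Gm43292 by 485 and Pdia6 those of Atp6v1c2 by 50. The use of strand in counting is not given in the sources used here, so reads from such stretches cannot be told apart.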

How the data were processed

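RNA was measured in 9 podocyte libraries, 3 per group. Per the labels' protocols, ribosomal RNA was depleted from total RNA and libraries followed standard Illumina protocols. FPKM values were deposited by the authors as one table; Bowtie 0.12.7, Cufflinks and the build mm9 appear in the submitters' processing notes, without roles. The sources used here do not give the annotation, the use of strand or the treatment of multiply mapped reads, and columns headed control were taken as the PBS libraries of the same replicate number. FPKM are not counts, so absolute depth is unknown and no counting interval is given; relative depth came from steps of values under 0.3 FPKM. Where a symbol had several rows (260 symbols), the one with the highest mean stood for it. The 9788 genes that reached 1 FPKM in 3 or more libraries were tested on log2(FPKM + 1) with limma 3.58.1 (R 4.3.3) using its variance trend, all 9 libraries in one fit and group as the only term, two-sided, Benjamini-Hochberg over all genes tested, threshold 0.05. Tests used values as deposited; printed log2 changes had the median of all genes subtracted. The fit was tested on simulated data. Lengths and exons came from GENCODE M21 and promoters from RefSeq (GRCm38.p6). The genes, the lists and several alternatives were chosen with earlier results of these data known. All 35 genes are named; of other pathway genes, per list and comparison up to 3 with the smallest p among those that passed, and beyond these Spcs1, Spcs2, Ssr2, Sec63, Ganab, Edem3 and Uggt1 on day 14 against PBS after their values were seen. Alternatives were another pseudocount (0.1), filter, scalings, variance model, threshold (0.1), duplicate handling, the replicate number as a block, a fit of only the groups compared, a Y-linked term, a length and GC trend removed, and libraries left out.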

Additional observations from a re-analysis of the deposited data

Results flagged for a closer look

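The 21 results below passed the test of day 14 against day 9 (limma, adjusted p under 0.05), but they are not all that passed. Of the 32 tested genes among the 35, 7 passed (21.9%), and 22 of the 113 other pathway genes did (19.5%). Of all genes tested, 15.7% passed in this comparison. Derl3, whose calls are not relied on, is left out. Of the other pathway genes, only those with the smallest p in each list are given. Ganab, Edem3, Man1b1, Nucb1, Sec11c, Spcs2 and Tmx1 also passed. PBS libraries enter this comparison only through the filter on low values and the shared spread, and changes are relative to the median of all genes tested. Among the 35 genes, Dnajb9 was higher on day 14 than on day 9 by 1.53, and Syvn1 (−1.60), Hyou1 (−1.12), Canx (−1.06), P4hb (−0.98) and Sel1l (−0.74) were lower. Hyou1 reached the filter on low values only with the day 9 libraries. Among the other pathway genes given here, Spcs1 (2.04), Selk (1.86), Nucb2 (1.66), Sec11a (1.52) and Vimp (1.41) were higher on day 14. Those lower on day 14 were Wfs1 (−2.09), Mbtps1 (−1.77), Sec61a1 (−1.39), Ubxn8 (−1.20), Uggt1 (−1.16), Stt3b (−0.92), Map3k5 (−0.86), Tmx4 (−0.81), Prkcsh (−0.76) and Txndc11 (−0.73). Map3k5 encodes the kinase ASK1 and Txndc11 a thioredoxin-domain protein of the reticulum. Neither passed on day 14 against PBS. Of the pathway genes given as higher on day 14, Spcs1, Nucb2 and Vimp did not pass after removal of a trend on length and GC content. They then stood at 1.04, 0.99 and 0.53 (limma, adjusted p = 0.133, 0.0775 and 0.3995). Of those lower, Uggt1, Stt3b, Map3k5, Tmx4, Prkcsh and Txndc11 did not pass there either.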

How the results depend on the processing

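On day 9 against PBS the count of genes passing was 0 among the 32 and 0 among the 113 other pathway genes in all settings run. For the 32 genes on day 14 against PBS (6 passed), 3 passed without the filter, 2 with only the groups compared, 0 with the Y-linked term, 2 with the length and GC trend removed and 10 at an adjusted p under 0.1; with single libraries left out the count ran from 0 (without PBS replicate 2) to 6, with 1 without PBS replicate 3 and 3 without day 9 replicate 2. On day 14 against day 9 (7 passed), 4 passed without the filter, 4 under median-of-ratios scaling and 4 under quantile normalization. With only the groups compared 2 passed, and 4 without day 9 replicate 3 and day 14 replicate 1 together. With the length and GC trend removed 1 passed, Derl3, while Syvn1 stood at −1.03 (limma, adjusted p = 0.077). Leaving out single libraries gave 2 to 6. Of all 9788 genes tested, 1670 passed on day 14 against PBS and 1536 against day 9. Against PBS, 470 passed with only the groups compared and 0 with the Y-linked term. Without PBS replicate 2 it was 0, and without PBS replicate 3 it was 150. With the length and GC trend removed 582 of 9732 passed. Against day 9, 262 passed with only the groups compared and 438 of 9732 with the trend removed. For the other pathway genes on day 14 against PBS (23 passed), 8 passed with only the groups compared, 0 with the Y-linked term, 10 with the length and GC trend removed and 37 at an adjusted p under 0.1; leaving out single libraries gave 0 (without PBS replicate 2) to 25, with 5 without PBS replicate 3. On day 14 against day 9 (22 passed), 5 passed with only the groups compared and 7 with the length and GC trend removed; leaving out single libraries gave 7 (without day 9 replicate 3) to 30, with 10 and 11 without day 9 replicates 1 and 2 and 11 without PBS replicate 2. Fewer libraries enter the fits with only the groups compared or with a library left out; the cause of the other differences was not tested. Same-numbered libraries deviated together in no steady way (correlations −0.265 to 0.431), so the numbers were not taken as pairing; with the replicate block 6 and 5 of the 32 and 22 and 18 of the other pathway genes passed on day 14 against PBS and against day 9. Under the block Sel1l was lost and Ddit3 gained (adjusted p = 0.0594 and 0.0416) on day 14 against PBS, and Dnajb9 and Sel1l were lost against day 9 (adjusted p = 0.0532 and 0.0558). Among the 32 genes and the pathway genes named by the rule, in the comparisons that named them, no change that passed turned its sign in any setting. Depth was lowest on day 14, which limits low genes such as Ern1, Hyou1, Trib3, Derl3 and Asns.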
